A study of Mus musculus with 6 samples.

Results

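The genes described here are 6 enzymes of cholesterol synthesis (Hmgcs1, Idi1, Fdps, Sqle, Lss and Dhcr7) and Insig1, a sterol-dependent regulator of that synthesis, 7 of the 23478 genes in the deposited count table. They were chosen by symbol, and all 7 were found in the table and passed the filter on low counts. The set was named for cholesterol synthesis and uptake, but none of the 7 is an uptake receptor, so they are called the synthesis genes and Insig1. The study sequenced RNA of sorted tracheal cells from mouse embryos of day 13.5, in 3 muscle and 3 epithelial libraries. All embryos carried floxed Bmp4 (Bmp4 f/f) together with gamma SMA eGFP, a reporter for smooth muscle, and the library titles call them controls. Muscle cells were collected by GFP, so that this group is defined by the activity of the reporter, and epithelial cells by surface Epcam. The labels name no Cre, and they do not say how many embryos were pooled or whether the replicates came from separate litters, so p-values measure the spread between these libraries only. The values below compare muscle with epithelium.

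Animal cells build cholesterol from acetyl-CoA through mevalonate, farnesyl diphosphate, squalene and lanosterol. The enzyme genes are switched on together by the transcription factor SREBP2 (gene Srebf2), which the escort protein SCAP carries from the endoplasmic reticulum to the Golgi for cleavage when membrane sterol is low. INSIG proteins hold SCAP back when sterol is plentiful, and Insig1 is itself a target of the SREBP factors, so that its RNA follows the same signal. In embryos the pathway supplies membranes of dividing cells, and its sterols modify Hedgehog ligands and act on the Hedgehog transducer Smoothened. Loss of DHCR7, the last enzyme of one branch, causes Smith-Lemli-Opitz syndrome.

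Promoter sequences are shown because SREBP2 binds a short element, the sterol regulatory element, usually next to sites for NF-Y and Sp1. RefSeq promoter windows of the mouse genome build GRCm38.p6, from 250 bases before to 50 bases after an annotated start, were matched by symbol for 5 of the 7 genes (Hmgcs1, Idi1, Lss, Dhcr7 and Insig1, Dhcr7 with more than 1 start). Sqle and Fdps were not matched. The 250 bases before the start are printed 5′ to 3′ on the plus strand for Hmgcs1, Idi1 and Insig1. Hmgcs1 (chr13:119690101-119690350) was the only matched gene with an exact match to the searched form of the element (TCACNCCAC). Idi1 (chr13:8885356-8885605) is shown because its level in epithelium replicate 3 stood farthest above the other epithelial libraries. Insig1 (chr5:28071162-28071411) is shown as the regulator. Capitals mark TCACNCCAC (sterol regulatory element), CCAAT (NF-Y) and GGGCGG (Sp1), each on either strand.
Hmgcs1: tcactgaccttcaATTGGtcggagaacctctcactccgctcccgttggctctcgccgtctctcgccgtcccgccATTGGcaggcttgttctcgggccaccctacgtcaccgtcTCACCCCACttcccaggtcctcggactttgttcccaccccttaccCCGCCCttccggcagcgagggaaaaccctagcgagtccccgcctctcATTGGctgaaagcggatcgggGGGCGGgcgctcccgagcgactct
Idi1: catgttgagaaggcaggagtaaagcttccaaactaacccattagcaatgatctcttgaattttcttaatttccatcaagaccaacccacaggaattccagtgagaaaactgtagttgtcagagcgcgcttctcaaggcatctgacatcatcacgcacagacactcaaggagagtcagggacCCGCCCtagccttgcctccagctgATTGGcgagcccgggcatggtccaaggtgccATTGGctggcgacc
Insig1: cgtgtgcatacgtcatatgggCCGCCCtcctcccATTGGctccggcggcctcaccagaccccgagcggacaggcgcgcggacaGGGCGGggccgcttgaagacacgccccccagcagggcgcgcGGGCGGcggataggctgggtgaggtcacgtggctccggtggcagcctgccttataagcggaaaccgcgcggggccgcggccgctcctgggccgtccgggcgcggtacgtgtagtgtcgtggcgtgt

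In the Hmgcs1 window TCACCCCAC lay from 137 to 129 bases before the start, between copies of ATTGG, the reverse complement of CCAAT, that began 176 and 45 bases before it. TCACNCCAC was present in 1.24% of all 32851 windows in the table, on either strand. The longer classical form of the element, which contains it, was in 0.0913% of all windows and in none of the 5 genes. CCAAT was found for 5 of the 5 genes and in 37.4% of all windows. GGGCGG was found for 5 of the 5 genes and in 35.7% of all windows. The 5 genes had 7 windows, and a gene was counted if any of its windows held a match, whereas the percentages are shares of windows. In Dhcr7 the CCAAT matches were all in 1 of its windows. No marked match overlapped another. A match describes the letters of the window and does not show that a factor binds there. Only exact strings were searched, so a missing match does not show that a window lacks a sterol regulatory element.

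Total counts ranged from 11847432 to 54848820 per library. The lowest count of any of the 7 genes was 358 (Lss in epithelium replicate 2), where counting alone gives an SD of 5.29%. The spread between libraries was wider, with an SD within a group from 11.3% to 38.1% of the mean. The smooth muscle markers (10 of 10 higher in muscle) summed to 4370 to 19298 CPM in muscle and 123 to 159 in epithelium, and the epithelial markers (10 of 10 higher in epithelium) to 15.1 to 29.8 and 3839 to 5049. These lists include Actg2, which encodes gamma smooth muscle actin, and Epcam, and the sorting itself selected for both. Muscle replicate 2 had the lowest sum of muscle markers. Cartilage markers summed to 974 to 1747 CPM in muscle and 254 to 615 in epithelium. Endothelial markers summed to 68.1 to 94.0 and 2.10 to 63.9. Tek (mean 31.3 CPM in muscle and 6.93 in epithelium) and Esam (26.0 and 3.81) made up most of the muscle sums. The defining gene Cdh5 averaged 1.96 CPM in muscle and 1.85 in epithelium. It was at 0.076 CPM in muscle replicate 1 and 0 in epithelium replicate 1. The 1456 olfactory and vomeronasal receptor genes summed to 883, 1817 and 636 CPM of library total in muscle replicate 2 and epithelium replicates 2 and 3, and to 7.26 to 37.8 in the others. Sample identifiers in the table header hold numbers that were read here as dates, an earlier one for both replicates 2 and a later one for the other 4 libraries. The header does not say what these numbers are, so the date groups used below rest on that reading. In bulk RNA, fewer cells of a type and less RNA per cell cannot be told apart.

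No difference between muscle and epithelium was detected for any of the 7 genes. Of the 7, 0 passed an adjusted p of 0.05 in edgeR's quasi-likelihood test in either direction, 0 had an unadjusted p under 0.05, and DESeq2 and limma-voom also called 0 and had 0 at an unadjusted p under 0.05. Over all 19375 tested genes 10.7% passed, and among the 5567 genes within the average log2 CPM range of these 7 genes (5.27 to 7.87) 16.6% passed. An unadjusted p under 0.05 was reached by 21.7% of all tested genes and by 32.3% of those in that range. With only 7 genes, a count of 0 does not stand apart from those shares. The muscle and epithelial libraries overlapped for all 7 genes, whereas the groups did not overlap for 26.9% of all tested genes (16.4% with muscle higher, 10.5% with epithelium higher) and for 34.4% of genes in that range (24.2% and 10.3%). The median log2 fold change of muscle over epithelium was 0.06 for the 7 genes, 0.17 for genes in that range and -0.10 for all tested genes. The summed level of the 7 genes was 790.4 ± 174 CPM in the muscle libraries and 751 ± 150.3 CPM in the epithelial ones (SD, n = 3).

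**Figure D1:**
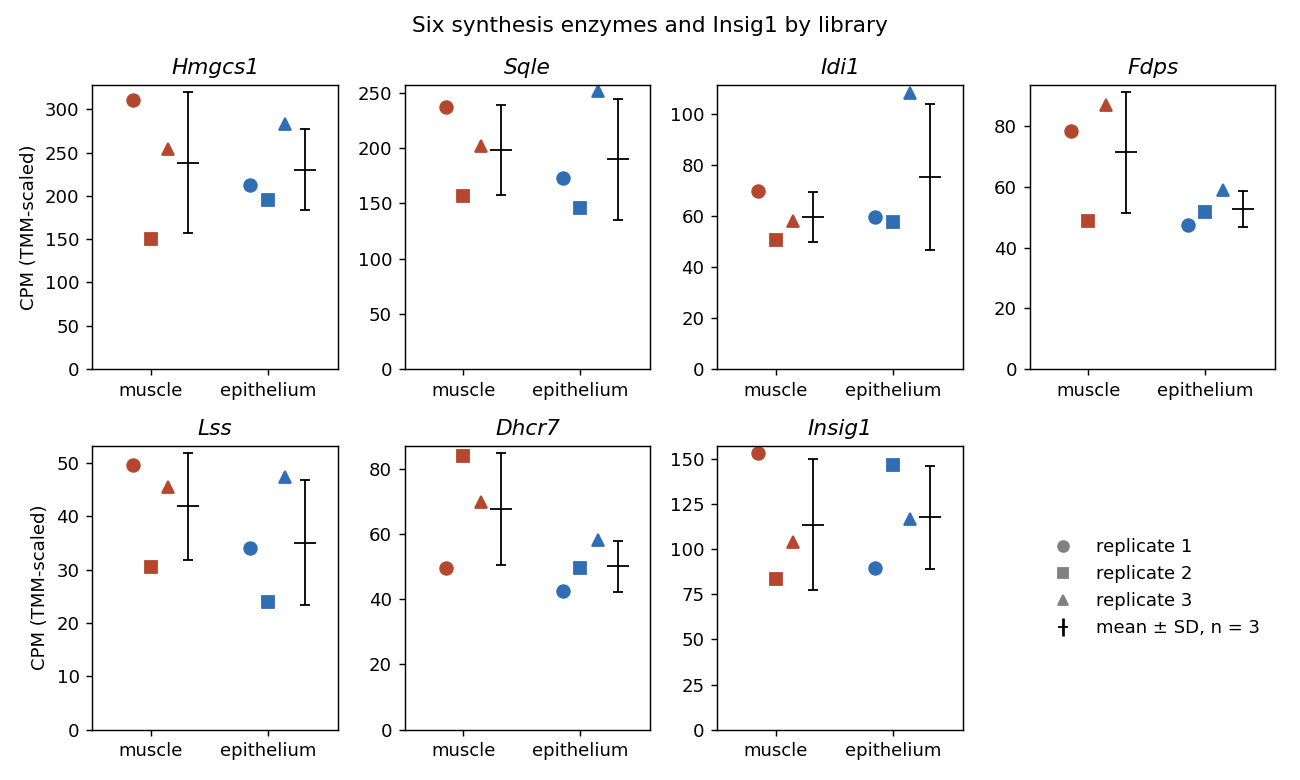
Each panel plots CPM (counts scaled by TMM to a common library size) of a gene on the y axis for the 3 muscle (red) and 3 epithelial (blue) libraries, with marker shapes for the replicate numbers and a bar for the mean ± SD (n = 3). The groups overlap in every panel. Replicate 2 is the lowest muscle library except in the Dhcr7 panel, and replicate 3 is the highest epithelial library except in the Insig1 panel.

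Hmgcs1, which makes HMG-CoA from acetoacetyl-CoA and so feeds the mevalonate pathway, lies on chromosome 13 from 119690351 to 119708260 (GRCm38.p6, RefSeq). It had 311, 149.8 and 254 CPM in muscle replicates 1 to 3 and 212, 195 and 283 CPM in epithelium replicates 1 to 3. The highest and the lowest of the 6 libraries were both muscle. Mean levels were 238 ± 81.5 and 230.3 ± 46.6 CPM (SD, n = 3). The log2 fold change of muscle over epithelium was 0.05 ± 0.31 (SE, edgeR adjusted p = 0.97), with a 95% interval from -0.66 to 0.75.

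Idi1 isomerises isopentenyl diphosphate to dimethylallyl diphosphate, the unit from which longer isoprenoids are built (chromosome 13, 8885606 to 8892396). Its level was 69.9, 50.7 and 57.9 CPM in muscle replicates 1 to 3 and 59.5, 57.7 and 108 CPM in epithelium replicates 1 to 3. Epithelium replicate 3 stood above the other 5 libraries, which lay close together. The log2 fold change was -0.34 ± 0.30 (edgeR adjusted p = 0.71), with an interval from -1.02 to 0.34. Fdps joins such units into farnesyl diphosphate, the branch point toward sterols, ubiquinone, dolichol and prenylated proteins (chromosome 3, 89093588 to 89101967). It had 78.3, 48.9 and 87.0 CPM in muscle and 47.3, 51.7 and 59.1 CPM in epithelium. Muscle replicates 1 and 3 lay above all epithelial libraries and muscle replicate 2 lay among them. Its log2 fold change of 0.44 ± 0.27 was the highest of the 7 (edgeR adjusted p = 0.45), with an interval from -0.17 to 1.05.

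Sqle encodes squalene epoxidase, the first oxygen-requiring and a rate-limiting step of the sterol branch (chromosome 15, 59315092 to 59331193). It had 237, 156 and 202 CPM in muscle replicates 1 to 3 and 172, 146 and 251 CPM in epithelium replicates 1 to 3. The ranges of the groups nearly coincided. The means were 198 ± 40.5 and 189.8 ± 55.0 CPM (SD, n = 3), a log2 fold change of 0.06 ± 0.28 (edgeR adjusted p = 0.96) with an interval from -0.58 to 0.71. Lss closes epoxidised squalene into lanosterol, the first sterol (chromosome 10, 76531565 to 76557139). Its values were 49.5, 30.6 and 45.4 CPM in muscle and 34.0, 23.9 and 47.2 CPM in epithelium. Epithelium replicate 3 lay among the higher muscle libraries, and muscle replicate 2 among the lower epithelial ones. The log2 fold change was 0.25 ± 0.31 (edgeR adjusted p = 0.83), with an interval from -0.45 to 0.96.

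Dhcr7 reduces 7-dehydrocholesterol to cholesterol (chromosome 7, 143823167 to 143848410). It had 49.6, 83.8 and 69.7 CPM in muscle replicates 1 to 3 and 42.5, 49.5 and 58.1 CPM in epithelium replicates 1 to 3. Here muscle replicate 2 was the highest library, and only muscle replicate 1 fell within the epithelial range. The log2 fold change was 0.44 ± 0.26 (edgeR adjusted p = 0.44), with an interval from -0.16 to 1.03. Insig1, the sterol-dependent anchor of SCAP (chromosome 5, 28071412 to 28078662), had 153, 83.2 and 104 CPM in muscle and 89.5, 147 and 117 CPM in epithelium. Its muscle libraries stood in the same order as those of Hmgcs1, Idi1, Sqle and Lss. Epithelium replicate 3 was the highest epithelial library for each of the enzymes above, and epithelium replicate 2 for Insig1. The log2 ratio of muscle to epithelium was -0.05 ± 0.30 (edgeR adjusted p = 0.97), with an interval from -0.73 to 0.63.

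A p above the threshold does not show that the levels were equal, and the intervals give what these libraries allow. The widest bounds of the 7 intervals were 2.07-fold toward muscle (Fdps) and 2.02-fold toward epithelium (Idi1). For Hmgcs1 the interval spanned ratios of muscle over epithelium from 0.63 to 1.68, for Sqle from 0.67 to 1.63 and for Insig1 from 0.60 to 1.55. The intervals are taken gene by gene and are not adjusted for the number of genes. Scaling moved the sign of the small differences: the median of the 7 genes was -0.04 with size factors of the DESeq2 type and -0.20 with library size only, where the median of all tested genes was -0.20 and -0.33. No direction is therefore given for the 7 genes as a group.

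**Figure D2:**
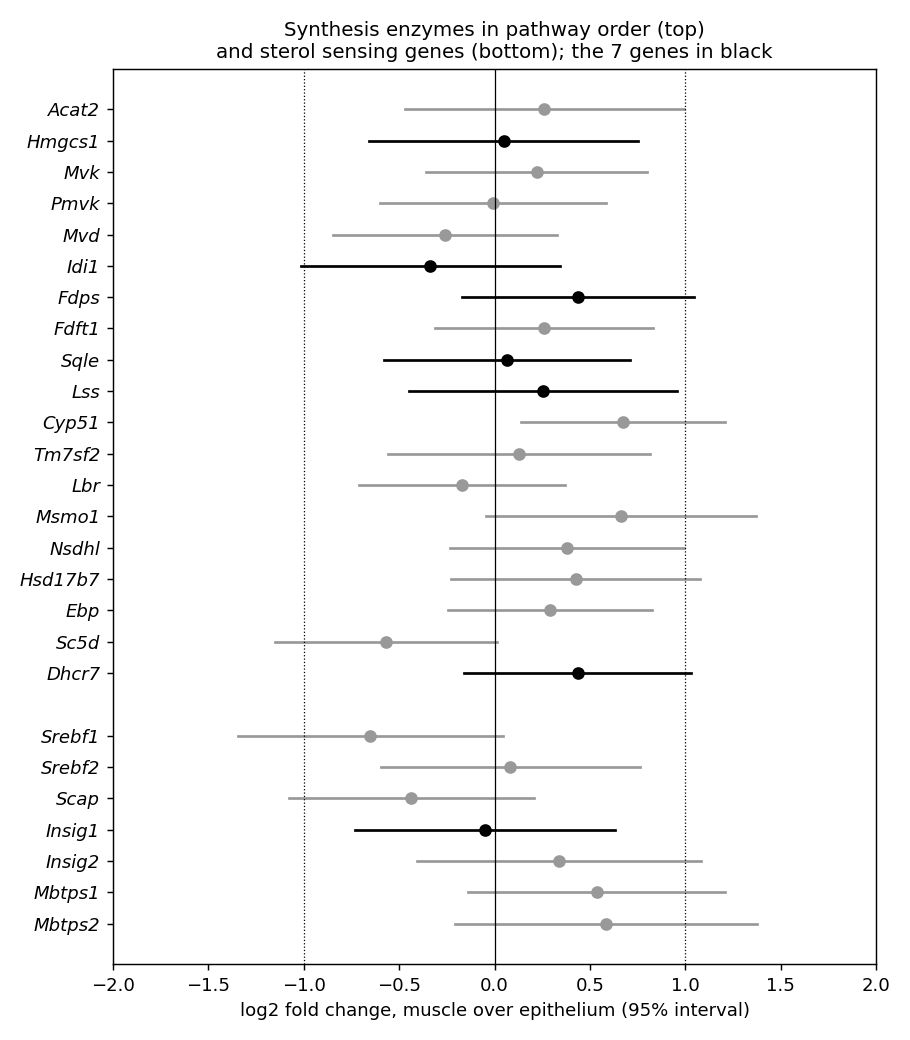
The x axis gives the log2 fold change of muscle over epithelium with its 95% interval (edgeR, 3 libraries per group), for 19 of the 21 cholesterol synthesis enzymes in pathway order and below them the 7 genes of sterol sensing, with the 7 genes of this account in black and dotted lines at a doubling and a halving. The 7 black intervals all include 0.

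Levels of the 7 genes were compared with each other per length, as CPM per kilobase of the longest basic coding transcript in GENCODE M21. On this scale the order in muscle was Sqle (72.0 ± 14.7 CPM per kilobase, SD, n = 3), Hmgcs1 (68.7 ± 23.5), Fdps (51.6 ± 14.4), Insig1 (42.1 ± 13.4), Dhcr7 (24.0 ± 6.11), Idi1 (19.7 ± 3.22) and Lss (8.96 ± 2.14). In epithelium it was Sqle (68.8 ± 19.9), Hmgcs1 (66.5 ± 13.5), Insig1 (43.6 ± 10.6), Fdps (38.1 ± 4.30), Idi1 (24.8 ± 9.47), Dhcr7 (17.8 ± 2.78) and Lss (7.51 ± 2.51). Sqle and Hmgcs1 led and Lss came last in both. Sqle and Hmgcs1, Fdps and Insig1, and Dhcr7 and Idi1 each differed by less than the larger SD of the pair in both populations. Dhcr7 and Idi1 in both populations, and Fdps and Insig1 in epithelium, differed by more than the smaller SD, and these 2 pairs stood in the opposite order in the 2 populations. The transcript isoform used in these cells is not known, so the per-length levels are approximate.

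The other enzymes of the pathway were read from the same fit. Of the 21 cholesterol synthesis enzymes in a list that includes 6 of the 7 genes, 0 passed the threshold in edgeR and 2 had an unadjusted p under 0.05, against 21.7% of all tested genes. DESeq2 called 3 of the 21 and limma-voom 0. Over the 21 the median log2 fold change was 0.24, beside 0.17 over genes in the range of average log2 CPM of the 7 genes and -0.10 over all tested genes.

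Several enzymes that act after lanosterol are given with their values, although none passed in edgeR. Cyp51, the lanosterol demethylase, had 251, 183 and 227 CPM in muscle replicates 1 to 3 and 122, 136 and 156 CPM in epithelium replicates 1 to 3. These groups did not overlap, yet the log2 fold change of 0.68 ± 0.24 did not pass in edgeR (adjusted p = 0.12, unadjusted p = 0.019). It passed with DESeq2 (adjusted p = 0.0050) and with only the libraries whose identifiers were read as the later date (edgeR adjusted p = 0.0498). Msmo1 (listed in the table as Sc4mol), which acts after Cyp51, had 204, 125 and 167 CPM in muscle and 81.0, 84.1 and 148 CPM in epithelium. Epithelium replicate 3 lay among the muscle libraries, and the log2 fold change was 0.66 ± 0.31 (edgeR adjusted p = 0.27). Msmo1 passed in no setting that kept more than 1 epithelial library.

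Toward epithelium, Sc5d, the desaturase that makes the substrate of Dhcr7, had 60.8, 36.0 and 50.8 CPM in muscle and 70.4, 66.6 and 82.1 CPM in epithelium, a log2 fold change of -0.57 ± 0.26 (edgeR adjusted p = 0.24). These groups did not overlap either, and Sc5d passed with library size only (edgeR adjusted p = 0.016) and with DESeq2 (adjusted p = 0.012). The groups also did not overlap for Ebp, a sterol isomerase (log2 fold change 0.29 ± 0.24, edgeR adjusted p = 0.65). In all, 4 of the 21 enzymes had groups that did not overlap, 2 in each direction, against 26.9% of all tested genes.

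Among the 7 genes of sterol sensing and SREBP activation, Insig1 included, 0 passed in edgeR and 0 had an unadjusted p under 0.05, while DESeq2 called 1 and limma-voom 0. Srebf2, the main activator of the synthesis genes, had 323, 186 and 337 CPM in muscle and 286, 204 and 309 CPM in epithelium, a log2 fold change of 0.08 ± 0.30 (edgeR adjusted p = 0.95). Srebf1, whose products act mainly on fatty acid genes, had 123, 91.6 and 117 CPM in muscle and 201, 105 and 213 CPM in epithelium. Epithelium replicate 2 lay among the muscle libraries, and epithelium replicates 1 and 3 lay above them. The log2 fold change of Srebf1 was -0.65 ± 0.31 (edgeR adjusted p = 0.27). Among the settings in which Srebf1 passed were the one without epithelium replicate 2 (-0.96, edgeR adjusted p = 0.024) and DESeq2 (-0.75, adjusted p = 0.026). It also passed within the libraries whose identifiers were read as the later date (-0.87, edgeR adjusted p = 0.013). With library size only, 2 of the 7 sensing genes were called higher in epithelium (edgeR).

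Levels of the enzymes also differed between libraries of the same population. In epithelium, replicate 3 was the highest library for 6 of the 7 genes and for 20 of the 21 enzymes, where 23.3% of tested genes in the same range of average log2 CPM and 21.6% of all tested genes had their highest epithelial value there. Its level over the mean of epithelium replicates 1 and 2 was 1.85-fold for Idi1, 1.63-fold for Lss, 1.58-fold for Sqle, 1.39-fold for Hmgcs1, 1.26-fold for Dhcr7, 1.19-fold for Fdps and 0.99-fold for Insig1. The median over the 21 enzymes was 1.35-fold, and over the genes in that range it was 1.04-fold. With size factors of the DESeq2 type the counts were 6 of 7 and 20 of 21, against 15.4% of genes in that range, and with library size only 4 of 7 and 16 of 21, against 27.8%. Of 15 genes of fatty acid synthesis, 8 were highest in epithelium replicate 3 with TMM (median 1.21-fold). With size factors of the DESeq2 type 5 were, and with library size only 8. This describes 1 library and has no test, and it was looked for after the values of the 7 genes had been seen.

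Epithelium replicate 3 also had the highest sum of dissociation response genes among the epithelial libraries (33528 CPM over 12 genes, against 26423 and 29128). Of these genes, Fos, Jun, Ier2, Atf3 and Btg2 were highest there, and the others were highest in epithelium replicate 1 or 2. The cell division genes of epithelium replicate 3 (4068 CPM over 18 genes) lay between 2201 and 4296 in the others. Its receptor-gene sum was the 636 CPM given above. Whether any of these had a part in the enzyme levels was not tested.

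Muscle replicate 2 was the lowest muscle library for 6 of the 7 genes and for 20 of the 21 enzymes. That share is near the one of like-expressed genes in general, 84.2%, and it depended on the scaling, with 9 of 21 enzymes and 36.6% of like-expressed genes under library size only. With TMM, Dhcr7 was the exception. Its level in muscle replicate 2 was 1.40-fold the mean of muscle replicates 1 and 3, where the median enzyme was at 0.69-fold. With the same scaling 3.70% of genes in the same range had their highest muscle value in that library. That share was 9.36% with size factors of the DESeq2 type and 29.5% with library size only, where 3 of the 21 enzymes were highest there. Without muscle replicate 2, 0 of the 7 genes passed, and the lowest adjusted p was 0.10, for Fdps (edgeR).

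**Figure D3:**
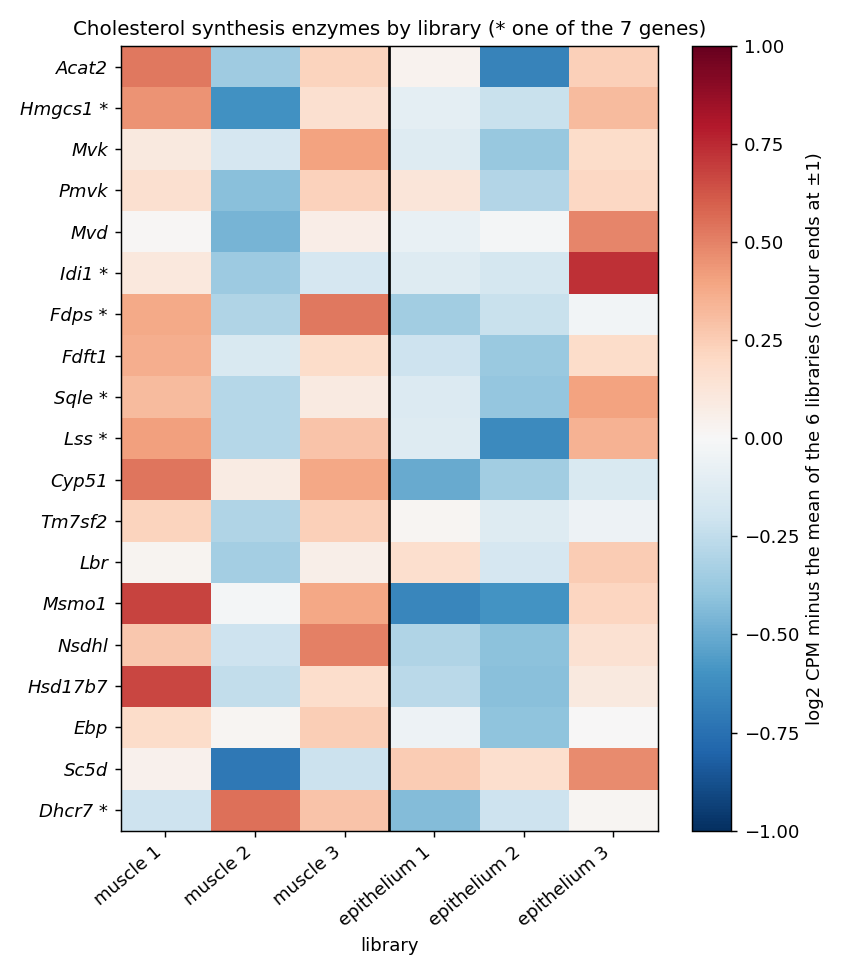
Colours give log2 CPM minus the mean of the 6 libraries for 19 of the 21 enzymes (rows, in pathway order, asterisks for 6 of the 7 genes) in each library (columns, muscle left of the line), red above and blue below that mean, with colours ending at 1 log2 unit. Epithelium replicate 3 is redder than the other epithelial libraries in 18 of the 19 rows, and Dhcr7 is the 1 row in which muscle replicate 2 is the highest muscle library.

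Of the 7 genes, Sqle followed their mean profile most closely over the 6 libraries, with a root mean square difference of 0.10 in centred log2 CPM. Dhcr7 (0.40) and Insig1 (0.30) were the farthest. Outside the lipid lists, the 5 genes closest to the mean profile among 9310 candidates (average log2 CPM 4 or more) were Dcun1d1 (0.04), Anln, Sypl, Nxt2 and Gm5141 (0.08). The median candidate differed by 0.37. Each of the 7 genes is part of the mean profile and lies closer to it by construction, so their distances are not compared with those of the candidates.

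Some genes that take up, release or store sterol passed the test. Of 15 genes of sterol uptake and intracellular transport, 3 were higher in muscle and 0 higher in epithelium (edgeR). Of all tested genes, 6.58% were called higher in muscle and 4.11% higher in epithelium. An unadjusted p under 0.05 was reached by 6 of the 15 (edgeR), against 21.7% of all tested genes. DESeq2 called 4 higher in muscle and 2 in epithelium, and limma-voom 4 and 0. Lrp1, a large endocytic receptor of the LDL receptor family with many ligands besides lipoproteins, had 403, 336 and 532 CPM in muscle replicates 1 to 3 and 91.8, 124 and 74.7 CPM in epithelium replicates 1 to 3. The lowest muscle library lay well above the highest epithelial one. As a log2 fold change the difference was 2.13 ± 0.30 (edgeR adjusted p = 0.0023).

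Lipa, the lysosomal lipase that frees cholesterol from lipoprotein esters, had 103.5, 86.3 and 96.0 CPM in muscle and 41.5, 30.7 and 42.3 CPM in epithelium, without overlap. Its log2 fold change was 1.32 ± 0.23 (edgeR adjusted p = 0.0074). Mylip, a ubiquitin ligase that marks LDL receptors for breakdown, had 23.7, 14.6 and 17.1 CPM in muscle and 6.69, 5.55 and 7.81 CPM in epithelium. Its log2 fold change of 1.46 ± 0.34 (edgeR adjusted p = 0.026) lost its call without muscle replicate 1 (adjusted p = 0.18), muscle replicate 3 (0.096) or epithelium replicate 1 (0.068), 2 (0.053) or 3 (0.11). It was also lost with library size only (0.052) and without the 3 libraries with the most receptor-gene counts, where 1 epithelial library is left.

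Of 12 genes of sterol efflux, storage and oxysterols, 2 were higher in muscle and 1 in epithelium (edgeR). The shares of all tested genes were 6.58% and 4.11%. Among the 12, 5 had an unadjusted p under 0.05 (edgeR), against 21.7% of all tested genes. DESeq2 called 3 higher in muscle and 1 in epithelium, and limma-voom 2 and 1. Apoe, the apolipoprotein that carries sterol between cells, had 59.8, 168 and 99.0 CPM in muscle and 14.3, 22.1 and 12.9 CPM in epithelium, a log2 fold change of 2.74 ± 0.41 (edgeR adjusted p = 0.0034). Muscle replicate 2, its highest library, also had the highest sum of 9 immune markers (53.7 CPM, other muscle libraries 3.34 and 21.6). The same markers summed to 4.31, 48.2 and 23.7 CPM in epithelium replicates 1 to 3. Whether immune cells had a part in the Apoe level was not tested. Abca1, the pump that loads cholesterol onto apolipoproteins, had 100.8, 48.3 and 66.0 CPM in muscle and 22.0, 28.3 and 18.8 CPM in epithelium. Its log2 fold change was 1.64 ± 0.32 (edgeR adjusted p = 0.011), and the call was lost without epithelium replicate 3 (adjusted p = 0.062).

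Nceh1, a hydrolase of stored cholesterol esters, was the gene of that list higher in epithelium, with 5.28, 8.89 and 5.21 CPM in muscle and 18.8, 14.2 and 19.8 CPM in epithelium. Its log2 fold change of -1.45 ± 0.37 (edgeR adjusted p = 0.036) did not pass without muscle replicate 1 (adjusted p = 0.15), muscle replicate 3 (0.16), epithelium replicate 1 (0.12) or epithelium replicate 3 (0.17), nor with library size only (0.051). Over all tested genes 10.7% passed in edgeR and 21.7% had an unadjusted p under 0.05. In the non-sterol branches of the mevalonate pathway 0 of 11 genes passed in edgeR and 2 had an unadjusted p under 0.05. In fatty acid synthesis 0 of 15 passed and 3 had an unadjusted p under 0.05. DESeq2 called 1 gene in each of these lists, and limma-voom 0 and 1.

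**Figure D4:**
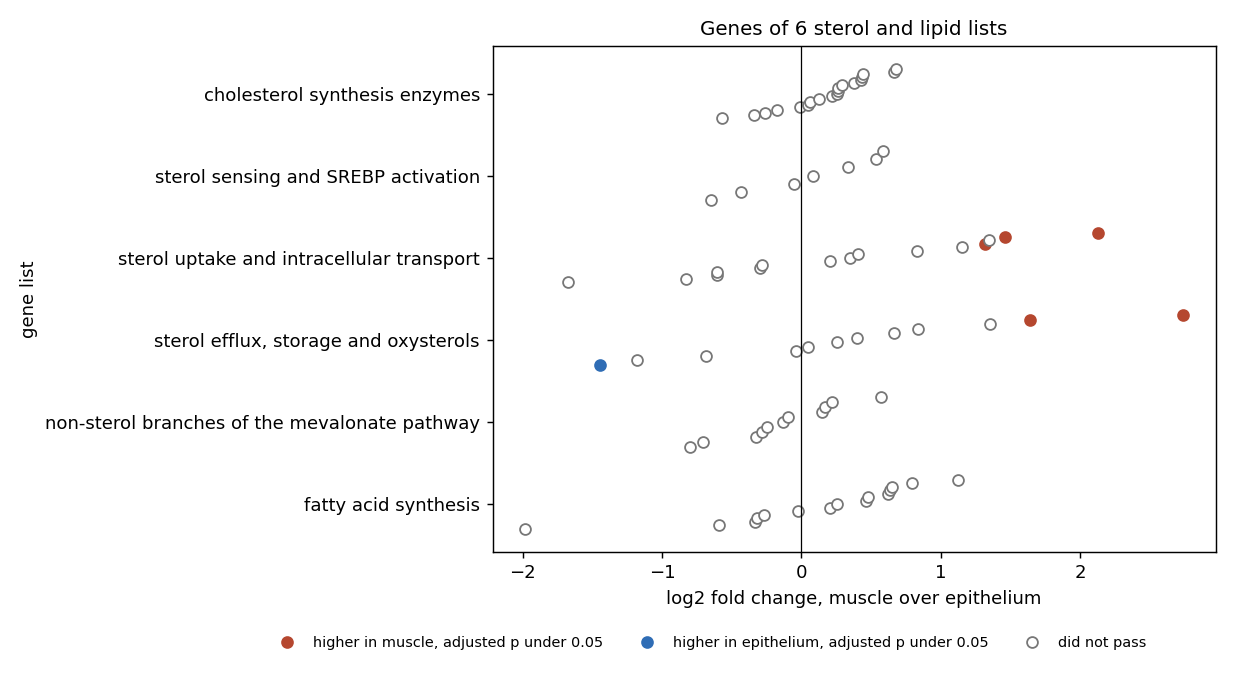
The x axis gives the log2 fold change of muscle over epithelium for the genes of 6 lists (rows, with 19 of the 21 enzymes), with filled points for genes past an adjusted p of 0.05 in edgeR (red, higher in muscle; blue, higher in epithelium), open points for the others, and heights within a row that only separate points. Filled points appear in the lists of sterol uptake and transport (3 higher in muscle) and of efflux and storage (2 higher in muscle, 1 in epithelium), and none among the synthesis enzymes.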

How the data were processed

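Per the labels' protocols, sorted cells went through Trizol extraction, SMART-Seq v4 cDNA synthesis and Nextera XT library preparation, without molecular identifiers or strand marking. The authors deposited a table of raw counts (23478 gene rows, 6 libraries). The submitters' processing notes name Trim Galore, Bowtie2, Cufflinks, DESeq and mm10, with no roles. The counting program and annotation are not given in the sources used here. Low counts (1 to 19) were mostly even (73.8% to 79.6%), so counting error may be understated.

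Counts were filtered (filterByExpr), TMM-scaled and tested over the whole table by edgeR 4.0.16 quasi-likelihood (R 4.3.3, two-sided, no covariate, Benjamini-Hochberg over 19375 genes, threshold 0.05), after a trial on simulated data. Standard errors come from the F statistic. Profiles used log2 CPM with a prior count of 2. DESeq2 1.42.0, limma 3.58.1 (voom), other scalings, no filter, a replicate block and fewer libraries were alternatives.

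The 7 genes and all lists were chosen with earlier results of these data known. Genes named were these 7, enzymes and sensing genes, the 5 with the most similar profile, and from other lists up to 3 passing genes per direction (average log2 CPM 2 or more). RefSeq synonyms matched 3 list genes. Positions are RefSeq's for GRCm38.p6, the assembly of mm10. Counts over the enzyme list use all 21, of which 2 are not reported here singly.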

Additional observations from a re-analysis of the deposited data

How the results depend on the processing

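All 7 genes stayed outside the threshold in all 14 alternatives. Over all tested genes the median log2 ratio moved from -0.10 to -0.20 with size factors of the DESeq2 type and to -0.33 with library size only, and small differences changed sign. With library size only the log2 fold change was -0.25 for Hmgcs1, -0.20 for Sqle, -0.013 for Lss and -0.20 for Srebf2. With size factors of the DESeq2 type, and equally with DESeq2, it was -0.077 for Hmgcs1, -0.045 for Sqle and -0.038 for Srebf2. With only the libraries whose header identifiers were read as the later date it was -0.026 for Sqle and 0.24 for Insig1, which was at 0.34 without the 3 libraries with the most receptor-gene counts. Leaving out 1 library at a time, values ranged from -0.18 to 0.30 for Hmgcs1, -0.13 to 0.22 for Sqle, -0.00098 to 0.44 for Lss, -0.31 to 0.14 for Insig1 and -0.14 to 0.32 for Srebf2. The cause was not tested.

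Calls over all tested genes were 1274 higher in muscle and 797 higher in epithelium. DESeq2 gave 1949 and 1582, and library size only 1041 and 1439. Leaving out 1 library gave 570 (without epithelium replicate 3) to 1655 and 514 (without muscle replicate 1) to 918. Counts in the lists below are genes passing. Enzymes higher in muscle were 1 with DESeq2, with the later date and without the 3 libraries, and enzymes higher in epithelium 2 with library size only and 2 with DESeq2. Sensing genes higher in epithelium were 2 with library size only, 1 with DESeq2, the later date or without the 3 libraries, and 0 to 1 leaving out 1 library. Uptake genes higher in epithelium were 2 with library size only, DESeq2 or without the 3 libraries, 3 with the later date and 0 to 1 leaving out 1 library. Efflux genes higher in muscle were 1 to 3 leaving out 1 library, and those higher in epithelium 0 with library size only, 2 without the 3 libraries and 0 to 1 leaving out 1 library. Non-sterol genes higher in epithelium were 2 with library size only, 1 with DESeq2, the later date or without the 3 libraries, and 0 to 1 leaving out 1 library. Fatty acid genes higher in muscle were 1 with limma-voom, 3 with the later date and 0 to 1 leaving out 1 library, and those higher in epithelium 3 with library size only, 1 with DESeq2 or the later date, 2 without the 3 libraries and 0 to 1 leaving out 1 library.

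Same-numbered libraries deviated from their group means with correlations of 0.59, 0.73 and -0.57 over 19375 genes, so the numbers were not taken to pair the libraries. A replicate block called 2418 genes, with 0 of the 7 genes, 1 sensing and 1 fatty acid gene higher in muscle, and 0 efflux genes higher in epithelium (Nceh1, adjusted p = 0.069, edgeR). Without the 3 libraries, 1 epithelial library is left, assumed to vary like the others.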
